A study of Mus musculus with 4 samples.

Results

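The nuclear genes for mitochondrial ribosomal proteins were followed in HT-22 cells, an immortalized mouse hippocampal line, with and without induced Pja2, which encodes a RING-type E3 ubiquitin ligase. Members were chosen by symbol alone: every gene named Mrpl or Mrps with a number and at most a letter after it, leaving out pseudogenes. This rule took 78 of the 24689 genes in the deposited table and used no measured value. The control group held 2 libraries, which the labels describe as uninduced in a place and as wild type in another, so both groups may not come from the same line. The induced group held 2 libraries of HT-22 cells titled Pja2-pb, a tag left unexplained in the labels, which also do not say how Pja2 was induced. All 4 libraries came from cells at passages 21 to 24, with no other treatment or allele named. No label gives separate cultures for the replicates, so every p-value measures only the spread between these libraries. In bulk RNA of this kind, fewer cells of a type and less RNA per cell cannot be told apart.

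Mitochondria keep a ribosome of their own, which descends from a bacterial ribosome and translates only the few proteins encoded in mitochondrial DNA, all of them subunits of the respiratory chain and ATP synthase. Its RNAs are made inside the organelle, from mitochondrial DNA, while all of its proteins are made in the cytosol from nuclear genes and imported. The large subunit joins amino acids and threads the new protein through an exit tunnel to the inner membrane, and the small subunit holds and decodes the messenger RNA. Neurons depend heavily on oxidative phosphorylation, and loss of single mitochondrial ribosomal proteins causes combined respiratory chain deficiencies in people.

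Values below are normalized reads, the reads per gene after the authors' scaling between libraries, and 25787452 to 35262653 reads per library fell in genes. The targeted gene followed the labels: Pja2 stood at 6167 and 5881 normalized reads in the controls, against 54830 and 54244 in the induced libraries, a 9.05-fold difference (log2 3.18, adjusted p = 6.36e-05, limma). The label of hippocampal neuron found little support in marker genes. Of 15 neuronal markers listed, only 7 were in the table, so the others could not be read. Of these 7, Prox1, Slc17a7, Elavl3, Dcx, Syp and Nefl averaged under 1 CPM (reads scaled by the total of the library). The sum of the 7 ranged from 19.4 to 21.0 CPM in controls and from 23.3 to 23.4 in induced cells, nearly all of it Tubb3. All 6 fibroblast and mesenchyme markers were expressed, with sums of 13744 to 15756 CPM in controls and 14272 to 14579 in induced cells, and such genes are also active in many immortalized lines. The part of these markers in the results was not tested.

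The promoters of 6 members are shown because the results turn on these genes: Mrpl17, the member that passed the test, the 4 members with the highest fold changes, and Mrpl33, which is among the most abundant and barely differed. Each line gives the 300 bases from 250 before to 50 after the RefSeq start (GRCm38.p6), read 5′ to 3′ along the gene. Capitals mark matches, on either strand, to GCATGCGC (core of the site of nuclear respiratory factor NRF1, reverse complement GCGCATGC), CCGGAAGT (the ETS factors, GABP among them, reverse complement ACTTCCGG) and AAGATGGCG (YY1, reverse complement CGCCATCTT), factors known for driving genes of mitochondrial proteins. These windows lie at chr7:105811038-105811337 on the minus strand (Mrpl17), chr16:18876588-18876887 on the minus strand (Mrpl40), chr19:11770165-11770464 on the plus strand (Mrpl16), chr19:6057706-6058005 on the minus strand (Mrpl49), chr13:73330759-73331058 on the plus strand (Mrpl36) and chr5:31613701-31614000 on the plus strand (Mrpl33).
Mrpl17: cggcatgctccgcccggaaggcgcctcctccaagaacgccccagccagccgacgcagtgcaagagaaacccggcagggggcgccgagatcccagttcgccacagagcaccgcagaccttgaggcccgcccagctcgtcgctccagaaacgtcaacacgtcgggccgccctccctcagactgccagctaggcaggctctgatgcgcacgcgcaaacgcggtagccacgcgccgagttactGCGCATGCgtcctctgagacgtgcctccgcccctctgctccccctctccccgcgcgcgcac
Mrpl40: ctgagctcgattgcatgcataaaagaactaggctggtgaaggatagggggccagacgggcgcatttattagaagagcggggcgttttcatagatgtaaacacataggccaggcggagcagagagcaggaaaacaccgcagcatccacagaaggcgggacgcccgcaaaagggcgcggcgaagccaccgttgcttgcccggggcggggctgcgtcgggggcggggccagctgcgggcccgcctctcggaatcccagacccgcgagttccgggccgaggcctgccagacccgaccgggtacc
Mrpl16: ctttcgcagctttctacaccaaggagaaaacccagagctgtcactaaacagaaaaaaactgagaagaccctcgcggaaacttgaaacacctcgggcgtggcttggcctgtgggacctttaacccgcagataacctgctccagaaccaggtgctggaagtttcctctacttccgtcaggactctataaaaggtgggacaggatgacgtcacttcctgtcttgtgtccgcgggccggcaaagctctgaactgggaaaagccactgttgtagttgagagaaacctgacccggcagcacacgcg
Mrpl49: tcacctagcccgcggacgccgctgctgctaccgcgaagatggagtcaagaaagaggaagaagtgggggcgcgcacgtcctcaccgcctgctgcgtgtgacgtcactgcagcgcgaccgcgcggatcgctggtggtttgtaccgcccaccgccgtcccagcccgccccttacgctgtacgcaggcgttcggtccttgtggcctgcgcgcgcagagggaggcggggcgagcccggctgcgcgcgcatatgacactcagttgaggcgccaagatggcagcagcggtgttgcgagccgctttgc
Mrpl36: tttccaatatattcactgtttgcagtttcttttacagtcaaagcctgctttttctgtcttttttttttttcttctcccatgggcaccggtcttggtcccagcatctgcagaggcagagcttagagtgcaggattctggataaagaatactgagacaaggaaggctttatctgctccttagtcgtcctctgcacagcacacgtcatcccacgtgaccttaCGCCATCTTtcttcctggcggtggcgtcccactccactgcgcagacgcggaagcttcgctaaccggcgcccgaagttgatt
Mrpl33: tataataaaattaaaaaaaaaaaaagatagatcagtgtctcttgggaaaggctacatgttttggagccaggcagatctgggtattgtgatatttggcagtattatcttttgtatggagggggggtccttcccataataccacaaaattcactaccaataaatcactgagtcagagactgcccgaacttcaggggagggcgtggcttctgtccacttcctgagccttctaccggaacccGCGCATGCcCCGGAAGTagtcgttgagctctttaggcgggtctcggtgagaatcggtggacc

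The match in Mrpl17 begins 11 bases before the start, that in Mrpl36 begins 31 bases before it, and Mrpl33 holds matches that begin 12 and 3 bases before it and do not overlap. No match to the 3 motifs was found in the windows of Mrpl40, Mrpl16 and Mrpl49. RefSeq windows were at hand for 69 of the 78 members, and 26 of these held at least 1 of the 3 motifs. GCATGCGC was present in 8 member windows (11.6%), against 3.05% of the windows of 27025 genes and 6.34% of those of 9193 tested genes. CCGGAAGT was present in 12 member windows (17.4%), against 4.31% and 9.77%. AAGATGGCG was present in 8 member windows (11.6%), against 1.64% and 3.82%. Base composition was close, with a median GC content of 58.7% in member windows and 60.7% in those of tested genes. A match describes letters in the window and is not a measured binding site.

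Expression of the mitochondrial ribosomal proteins as a group lay at almost the same level with and without induced Pja2. All 78 members passed the filter of a mean of 1 CPM and entered the fit of 13276 genes, in which limma called a gene at a Benjamini-Hochberg adjusted p under 0.05 over all tested genes. No member was called higher and 1 was called lower, Mrpl17, where 2.08% of all tested genes were called higher and 1.34% lower. The 1 call makes up 1.28% of the members, near the background, and is a result about Mrpl17 rather than about the group. At an unadjusted p under 0.05 (limma) there were 6 of the 78 members, a smaller share than the 2535 of 13276 tested genes. They were Mrpl17 and Mrps9 with lower values, and Mrpl40, Mrpl49, Mrpl16 and Mrpl36 with higher values. Both induced libraries lay above both controls for 10 members (12.8%, against 26.2% of tested genes) and below both for 16 (20.5%, against 25.1%).

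The log2 fold changes (induced minus control) of the members ranged from -0.75 to 0.41, with 46 above 0 and 32 below. Their median was 0.02, beside 0.00 over all tested genes, and their quartiles were -0.09 and 0.08, beside -0.14 and 0.14. No member differed by 2-fold or more, while 319 tested genes did, and 65 members (83.3%) lay within 0.2 of 0, beside 64.4% of tested genes. The standard error of a member's fold change had a median of 0.10, beside 0.11 over all tested genes. The sign of the members' median rested on single libraries: it was -0.06 without control replicate 1 and 0.08 without control replicate 2. As a share of all reads in genes, the members took 0.249% and 0.272% in the controls, against 0.264% and 0.253% in the induced libraries. Both groups overlap in that share (0.261% ± 0.0160 and 0.258% ± 0.00753, SD, n = 2).

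**Figure D1:**
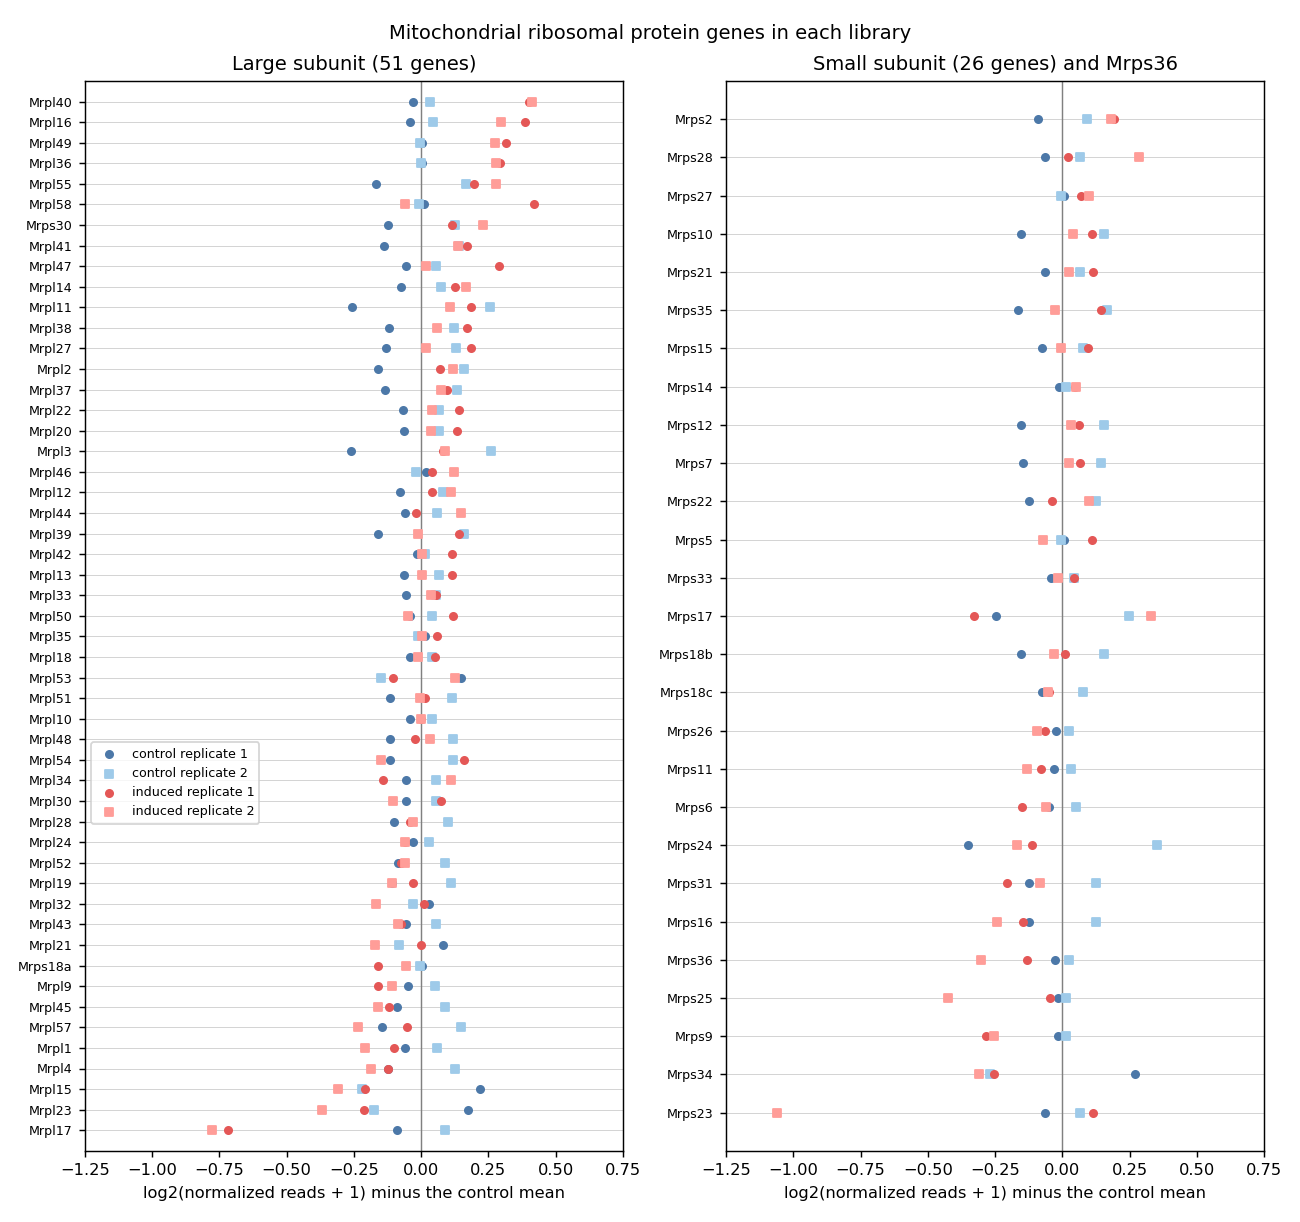
Each row is a member, ordered by fold change within the large subunit (left) and the small subunit with Mrps36 (right), and each point is a library, plotted as its log2(normalized reads + 1) minus the mean of the 2 controls. Most points lie close to 0, Mrpl17 is low in both induced libraries, and Mrps23 is low in induced replicate 2 only.

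By subunit, 51 members belong to the large subunit, with a median log2 fold change of 0.03, 0 called higher and 1 lower, and 26 to the small subunit, with a median of 0.00 and 0 called. Of the small subunit, 1 of 26 members had an unadjusted p under 0.05 (limma, Mrps9), beside 2535 of 13276 tested genes. By descent, the 46 members with a counterpart in bacterial ribosomes had a median of 0.03, with 1 called lower. The 31 proteins added to the ribosome in mitochondria had a median of 0.01, with 0 called. Over all tested genes the median was 0.00. In reads, the large subunit took 0.168% and 0.182% in the controls, against 0.179% and 0.174% in the induced libraries. The small subunit took 0.0795% and 0.0876%, then 0.0824% and 0.0779%.

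Mrpl17 (ENSMUSG00000030879, chromosome 7) is the counterpart of bacterial L17, which sits close to where the new protein leaves the exit tunnel. It stood at 1125 and 1279 normalized reads in the controls, against 729.6 and 699.3 in the induced libraries. Both induced libraries lay far below both controls, with no overlap. The mean fell to 0.594 of the control level, from 1202 ± 108 to 714.5 ± 21.5 (SD, n = 2), a log2 fold change of -0.75 with a standard error of 0.10 and an adjusted p of 0.0246 (limma). Its direction held in all 13 fits, from -0.84 to -0.66, but the call did not. The adjusted p was 0.0533 with no filter on low values, 0.0802 without the variance trend, 0.061 without control replicate 2, 0.0503 without induced replicate 1 and 0.0732 without induced replicate 2. No exon of Mrpl17 overlaps another gene of the table. The 10 nearest tested genes centred on a log2 fold change of -0.05, with 8 below 0 and none called by limma. Among the 50 nearest the median was also -0.05, with 32 below 0, 4 called lower and 0 called higher. Of the 1024 tested genes of chromosome 7, 9 (0.879%) were called lower. The part of these surroundings in the value of Mrpl17 was not tested.

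The 4 members with the highest fold changes all belong to the large subunit, and none of them passed the test. Mrpl40, a mitochondrion-specific protein of the central protuberance whose human gene lies in the 22q11 deletion region, stood at 762.0 and 796.2 normalized reads in the controls, against 1028 and 1036 in the induced libraries. Its replicates lay close together and the groups did not overlap, a 1.32-fold difference (log2 0.41, standard error 0.09, adjusted p = 0.0709).

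Mrpl49, also specific to mitochondria, stood at 1905 and 1896 normalized reads in the controls, against 2366 and 2303 in the induced libraries (1.23-fold, adjusted p = 0.0876). Mrpl16, the counterpart of bacterial L16 near the peptidyl transferase centre, stood at 803.5 and 853.0, then at 1084 and 1016 (1.27-fold, adjusted p = 0.124). Mrpl36, a very small protein of the large subunit, stood at 399.9 and 399.1, then at 489.3 and 484.1 (1.22-fold, adjusted p = 0.232). In each of these genes both induced libraries were higher than both controls, by more than the replicates differed from each other. Mrpl55, the fifth in this order, had a lone low control: 238.9 and 301.2 normalized reads in the controls, against 307.7 and 325.5 in the induced libraries (log2 0.24, adjusted p = 0.476).

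**Figure D2:**
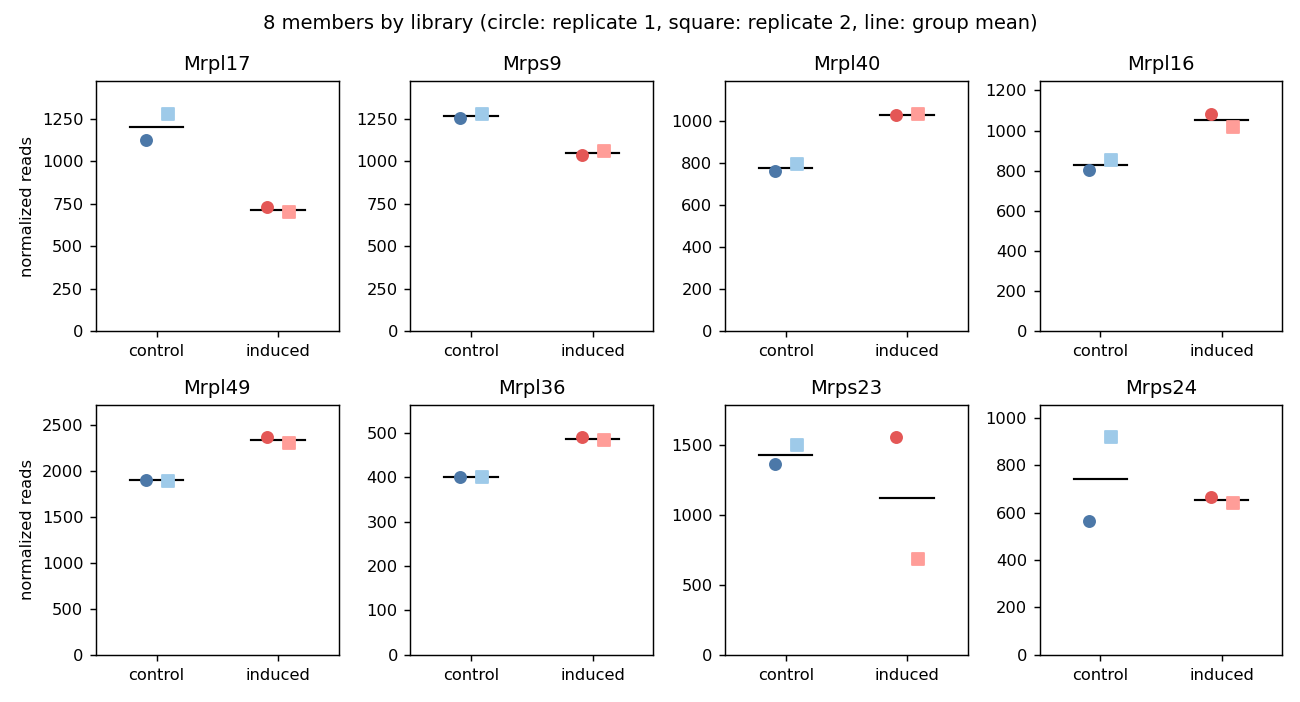
Normalized reads of 8 members in each library, with circles for replicate 1, squares for replicate 2 and lines for group means, on axes that start at 0. The groups are apart for Mrpl17, Mrps9, Mrpl40, Mrpl16, Mrpl49 and Mrpl36, while for Mrps23 and Mrps24 a single library sets the group mean.

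Chromosome position was examined because Mrpl40 lies on chromosome 16, where most tested genes had higher values in the induced libraries. Of 403 tested genes there, 85 (21.1%) were called higher and 6 lower, and their median log2 fold change was 0.31. On all other chromosomes 191 of 12873 tested genes (1.48%) were called higher, with a median of -0.00. Mrpl40 was at 0.41, and its 50 nearest tested genes had a median of 0.37 (from -0.64 to 0.97), with 41 above 0 and 11 called higher. Among its 10 nearest the median was 0.39, with 7 above 0. The part of these surroundings in the value of Mrpl40 was not tested.

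The other two members on chromosome 16 lay near 0. Mrpl39, a mitochondrion-specific large subunit protein, stood at 1035 and 1295 normalized reads in the controls, against 1277 and 1148 in the induced libraries (log2 0.06). Mrps6, the counterpart of bacterial S6, stood at 1665 and 1784, then at 1554 and 1655 (log2 -0.10). The groups overlap for Mrpl39 and lie just apart for Mrps6. Around Mrpl39 the 50 nearest tested genes had a median of 0.15, with 8 called higher and 2 lower, and around Mrps6 the 48 nearest had a median of 0.05 with none called by limma. Mrpl49 and Mrpl16 share chromosome 19 (median 0.05), and their 50 nearest tested genes had medians of 0.15 and 0.13. Their 10 nearest had medians of 0.18 and 0.21, with 9 above 0 for each. Around Mrpl39 and Mrps6 the 10 nearest had medians of 0.07 and 0.07. The part of position in these values was not tested. Mrpl39 and Mrps6 were named after their values were seen.

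**Figure D3:**
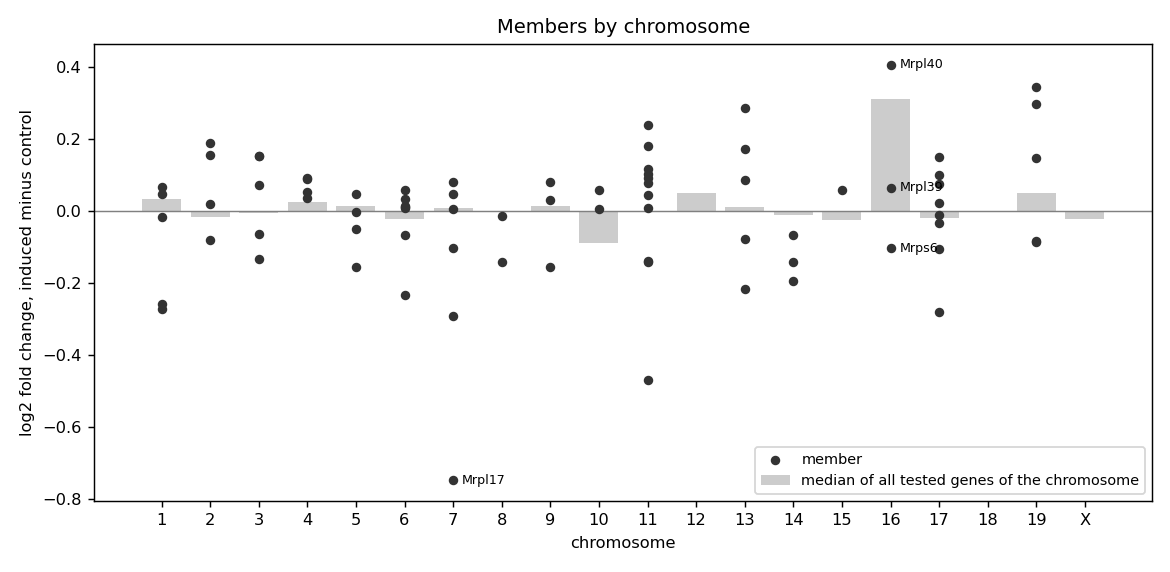
Points are the log2 fold changes of the 78 members by chromosome, and grey bars the median over all tested genes of each chromosome. Chromosome 16 has the highest bar, at 0.31, and of its 3 members Mrpl40 lies above the bar and Mrpl39 and Mrps6 well below it.

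The functional centres of the large subunit come next, with genes that were chosen after their values were seen, Mrpl23 and Mrpl17 apart. The stalk, which recruits translation factors, is built from Mrpl10, Mrpl11 and Mrpl12, whose log2 fold changes were 0.01, 0.15 and 0.08. Mrpl11 was low in control replicate 1 only, with 702.9 and 1003 normalized reads in the controls, against 955.8 and 904.2 in the induced libraries. Among other proteins that line or ring the exit tunnel, Mrpl22 was at 0.09, Mrpl24 at -0.06, and Mrpl45, which ties the ribosome to the inner membrane, at -0.14, none of them called. Mrpl23 at the tunnel exit had the third lowest value of all members, with 332.0 and 260.1 normalized reads in the controls, against 253.4 and 227.2 in the induced libraries. Control replicate 1 alone was high, both induced libraries lay below both controls, and the difference did not pass (log2 -0.29, adjusted p = 0.413). Whether Mrpl17 and Mrpl23 differ from their neighbours in the ribosome was not tested.

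In the small subunit the clearest separation was that of Mrps9, a protein of the head whose bacterial counterpart is S9. Mrps9 stood at 1252 and 1280 normalized reads in the controls, against 1038 and 1059 in the induced libraries. Replicates differed little and the groups did not overlap, at 0.828 of the control mean (log2 -0.27, standard error 0.08), but the adjusted p of 0.150 did not pass. Mrps34, a mitochondrion-specific protein, was set by a high control: 734.4 and 505.5 in the controls, against 511.1 and 491.5 in the induced libraries (log2 -0.28, adjusted p = 0.471). Control replicate 2 of Mrps34 lay between the induced libraries.

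The small subunit also held the members whose replicates agreed least. Mrps23, specific to mitochondria, stood at 1366 and 1495 normalized reads in the controls but at 1553 and 686.3 in the induced libraries. Induced replicate 1 was the highest of all 4 libraries and induced replicate 2 by far the lowest. Among the 8876 tested genes with a mean of at least 500 normalized reads, 58 (0.653%) had an induced pair that far apart. The log2 fold change of Mrps23, -0.47 over all libraries, was 0.12 without induced replicate 2 and -1.06 without induced replicate 1 (adjusted p = 0.0135), so induced replicate 2 alone sets its direction.

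Mrps24, the counterpart of bacterial S3 at the entry of the messenger RNA channel, stood at 563.4 and 917.3 normalized reads in the controls, against 664.4 and 639.0 in the induced libraries. Of the 8876 genes at that level, 142 (1.6%) had controls as far apart, and both induced libraries of Mrps24 fell between its controls. Mrps17, the counterpart of bacterial S17, varied in both groups, with 777.1 and 1097 in the controls, against 734.0 and 1156 in the induced libraries. Replicate 1 was low and replicate 2 high in each group, and the group means, 937.3 and 944.8, were nearly equal.

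Several members sit elsewhere than their names say. Mrps18a and Mrps30 are parts of the large subunit. Mrps18a stood at 1064 and 1062 normalized reads in the controls, against 950.4 and 1024 in the induced libraries (log2 -0.11), and Mrps30 at 738.1 and 877.3, then 872.1 and 943.2 (log2 0.17). The induced libraries lay below the controls for Mrps18a and overlapped them for Mrps30, and neither passed. Mrps18a has 2 paralogs related to bacterial S18, both in the small subunit: Mrps18b had a log2 fold change of -0.01 and Mrps18c of -0.05. Mrps18b stood at 631.3 and 780.4, then 706.8 and 686.3. Of its exon bases 59.1% overlap Gm16279, and these libraries cannot tell the reads of these genes apart there.

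Mrps36 was later assigned to the alpha-ketoglutarate dehydrogenase complex of the citric acid cycle and is counted in neither subunit. It stood at 633.8 and 657.2 normalized reads in the controls, against 588.3 and 523.1 in the induced libraries. Both induced libraries lay below both controls, and the difference did not pass (log2 -0.22, adjusted p = 0.343). Its pseudogenes Mrps36-ps1 and Mrps36-ps2 carried up to 68.5 and 35.2 normalized reads in a library, so part of the value is uncertain. Mrpl23-ps1, with 96.5 to 114.4 normalized reads, puts the same limit on Mrpl23. Exons of 26 members overlap another gene of the table, 7 of them over more than 25% of their bases.

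The 10 members whose induced libraries both exceeded both controls were Mrpl40, Mrpl16, Mrpl49, Mrpl36, Mrpl55, Mrpl14, Mrpl46, Mrps2, Mrps14 and Mrps27. The 16 whose induced libraries both lay below were Mrpl17, Mrpl23, Mrps9, Mrps25, Mrps36, Mrps16, Mrpl4, Mrpl1, Mrpl45, Mrpl9, Mrps18a, Mrps6, Mrps11, Mrpl43, Mrps26 and Mrpl24. Of these, Mrpl17 alone passed the test. A few more were singled out after their values were seen. Mrps2, the counterpart of bacterial S2, stood at 1049 and 1188 normalized reads in the controls, against 1280 and 1265 in the induced libraries (log2 0.19, adjusted p = 0.339), and Mrpl14, the counterpart of bacterial L14, at 1200 and 1328, then 1382 and 1420 (log2 0.15, adjusted p = 0.407). Induced libraries were higher in both genes, by margins close to the spread of the controls.

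Single libraries stood out in others. Mrps25, specific to mitochondria, stood at 2715 and 2782 normalized reads in the controls, against 2665 and 2048 in the induced libraries, so that induced replicate 2 alone was low, as for Mrps23, and 58.2% of its exon bases overlap Nr2c2. Mrpl58, a peptidyl-tRNA hydrolase built into the large subunit, stood at 618.7 and 610.8, then 822.1 and 589.8, with induced replicate 1 alone high. Mrpl15, the counterpart of bacterial L15, stood at 2286 and 1688, then 1702 and 1582, with control replicate 1 alone high. None of these 3 was called by limma (log2 fold changes of -0.23, 0.18 and -0.26).

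Per kilobase of the principal transcript, the most abundant members were Mrps21 (3973 normalized reads per kb, mean of the 4 libraries), Mrpl33 (3961), Mrpl28 (2467), Mrpl18 (2215) and Mrpl42 (2124). Mrps21 and Mrpl33 encode very short proteins with bacterial counterparts. The level of Mrps21 was 3695 and 4059 normalized reads per kb in the controls, against 4185 and 3953 in the induced libraries, and that of Mrpl33 was 3746 and 4047, then 4045 and 4005. The ranges of Mrps21 and Mrpl33 overlap, so their order could not be separated from the spread, while Mrpl28 (2327 to 2673 over the libraries) lay below both in every library. Mrpl28 in turn lay above Mrpl18 (2136 to 2277) in every library. The ranges of Mrpl18 and Mrpl42 (2056 to 2243) overlap, but within each library Mrpl18 lay above Mrpl42. All 5 had log2 fold changes between -0.03 and 0.07.

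The lowest levels belonged to Mrpl57 (108.7 normalized reads per kb) and Mrpl17 (131.3), whose long annotated transcripts lower a value per kilobase. Over the members the median level was 681.4 normalized reads per kb, beside 360.8 over all tested genes and 19261 over the cytosolic ribosomal proteins.

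Between replicates the members leaned to the same side. Control replicate 1 lay below control replicate 2 for 64 of 78 members, with a median gap of 0.13 on the log2 scale, where the same held for 6841 of 13276 tested genes and a median gap of 0.01. Induced replicate 1 lay above induced replicate 2 for 54 members, with a median gap of -0.04 (replicate 2 minus 1). Cytosolic ribosomal proteins showed the same lean, with control replicate 1 lower for 73 of 79 and induced replicate 1 higher for 65. A gap of 0.13 between controls is wider than the members' median difference between groups of 0.02. Its cause was not tested.

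**Figure D4:**
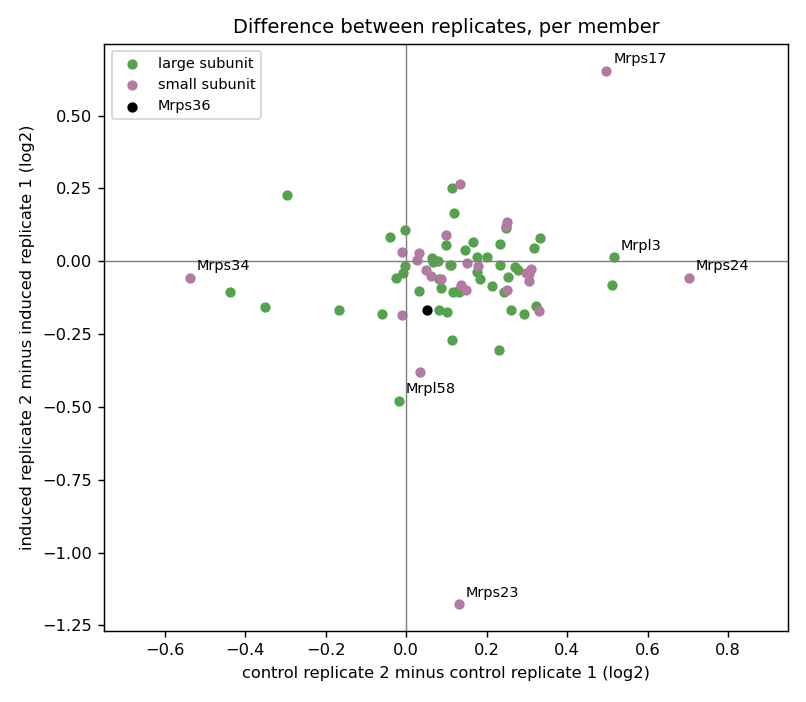
Each point is a member, placed by the log2 difference of the 2 controls (x axis) and of the 2 induced libraries (y axis). Most points lie right of 0, with control replicate 2 above control replicate 1, and Mrps23, Mrps24 and Mrps17 stand farthest out.

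Genes of this family that cause combined oxidative phosphorylation deficiency when mutated in people include Mrpl3, Mrpl44, Mrps16 and Mrps22, chosen here after their values were seen. None of these 4 was called by limma. Mrpl3 stood at 1114 and 1593 normalized reads in the controls, against 1403 and 1416 in the induced libraries, with both induced libraries between the controls. Mrps16 stood at 803.5 and 956.3, then 792.7 and 740.1, with the induced libraries lower (log2 -0.19). Mrpl44 and Mrps22 had log2 fold changes of 0.06 and 0.03, and their groups overlap.

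The remaining machinery of mitochondrial translation was read from lists of known genes, as counts and medians of the same fit. Of 5 further ribosome subunits with other names, 0 were called, with a median log2 fold change of -0.01, and examples are Ptcd3 at 0.07 and Chchd1 at -0.07. Of 25 assembly factors, which fold, modify and join the ribosomal RNAs and proteins, 0 were called (median 0.02), with Ngrn at 0.11 and Mpv17l2 at 0.01. Of 16 translation factors and partners 0 were called (median -0.02), among them Tufm, the elongation factor, at -0.07 and Lrpprc, which stabilizes mitochondrial messenger RNAs, at -0.05. The log2 fold changes of these 3 lists ran from -0.11 to 0.52, from -0.34 to 0.30 and from -0.51 to 0.38. At an unadjusted p under 0.05 (limma) the lists held 0 of 5, 0 of 25 and 4 of 16 genes, beside 2535 of 13276 tested genes. Those 4, named after their values were seen, were Mtrf1 at -0.51, Guf1 at -0.35, Mtif2 at -0.27 and Mtif3 at 0.31. Of 20 genes for mitochondrial aminoacyl-tRNA synthesis 0 were called and 2 had an unadjusted p under 0.05 (median 0.00), with Iars2 at -0.01 and Gatc at -0.08.

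RNAs encoded in mitochondrial DNA, the partners of the members in the ribosome and its templates, had lower means in the induced libraries. Each of the 15 had a negative log2 fold change (median -0.15). Both induced libraries lay below both controls for 13 of them (86.7%, against 25.1% of tested genes). At an unadjusted p under 0.05 (limma) there were 3 of the 15, about the same share as the 2535 of 13276 tested genes. By adjusted p, 1 was called (6.67%, against 1.34% of tested genes called lower). The called gene was mt-Rnr2, the ribosomal RNA of the large subunit. It stood at 32686 and 34002 normalized reads in the controls, against 26273 and 25870 in the induced libraries. The groups were well apart, and it fell by 0.35 on the log2 scale (standard error 0.06, adjusted p = 0.0388, limma). This call was lost without any of the 4 libraries, at adjusted p of 0.0676 without control replicate 1, 0.0882 without control replicate 2, 0.157 without induced replicate 1 and 0.196 without induced replicate 2, while the value stayed between -0.38 and -0.33.

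The ribosomal RNA of the small subunit, mt-Rnr1, stood at 10376 and 11671, then at 10581 and 10165 normalized reads (log2 -0.09, adjusted p = 0.593), with the groups overlapping. Per kilobase, mt-Rnr2 and mt-Rnr1 averaged 18778 and 11202 normalized reads, against a median of 84665 over the 15 RNAs. How fully these libraries capture ribosomal RNA was not tested, so the values may not stand for its total amount. Whether the RNAs of the subunits differ in response was not tested. Among the messenger RNAs, mt-Co1 and mt-Cytb were at -0.17 and -0.15, neither called, and mt-Atp6, named after its values were seen, had controls far apart, at 25721 and 81431. Its log2 fold change of -0.95 was -1.78 without control replicate 1 (adjusted p = 0.00211) and -0.12 without control replicate 2. Together the 15 RNAs took 5.06% and 5.2% of reads in the controls, against 4.59% and 4.44% in the induced libraries. The protein genes of the same ribosome had a median of 0.02, and the difference between these lists was not tested.

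Genes that govern mitochondrial transcription or the nuclear genes of mitochondria had a median of -0.08 over 17 tested, with 0 called. Beside 2535 of 13276 tested genes, 1 of the 17 had an unadjusted p under 0.05 (limma). That gene is Ppargc1a, the coactivator PGC-1alpha, named after its values were seen, with 368.4 and 366.5 normalized reads in the controls, against 181.6 and 241.1 in the induced libraries. Both induced libraries lay far below the controls, and the difference did not pass (log2 -0.81, standard error 0.17, adjusted p = 0.0739). Gabpb2, a subunit of the factor that binds the ETS motif searched for above, was at -0.10, and Myc at -0.22, neither called.

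Cytosolic ribosomal proteins, the counterparts outside the organelle, had a median log2 fold change of -0.13 over 79 tested, with 71 below 0. At an unadjusted p under 0.05 (limma, either direction) there were 23 of the 79, beside 2535 of 13276 tested genes. Among the 23, Rpl35a, Rpl24 and Rps27l had higher values. Both induced libraries lay below both controls for 50 (63.3%, against 25.1% of tested genes) and above both for 3 (3.80%, against 26.2%). Only 2 were called, both higher, Rpl24 and Rps27l (2.53%, against 2.08% of tested genes). Rpl24, on chromosome 16, stood at 13112 and 14503 normalized reads in the controls, against 20002 and 18018 in the induced libraries, and 71.5% of its exon bases overlap Gm28037. Rps27l stood at 1959 and 1948, then 3031 and 2672. The abundant Rps6 and Rpl23a were at -0.24 and -0.18, neither called. Both calls fail when either control is left out or induced replicate 1 is, with adjusted p of 0.115, 0.058 and 0.157 for Rpl24 and 0.0838, 0.0806 and 0.106 for Rps27l, and Rpl24 also fails without induced replicate 2 (0.0698). Their share of all reads was 4.62% and 4.98% in the controls, against 4.45% and 4.27% in the induced libraries, against the members' overlapping shares. Whether the families differ in response was not tested.

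**Figure D5:**
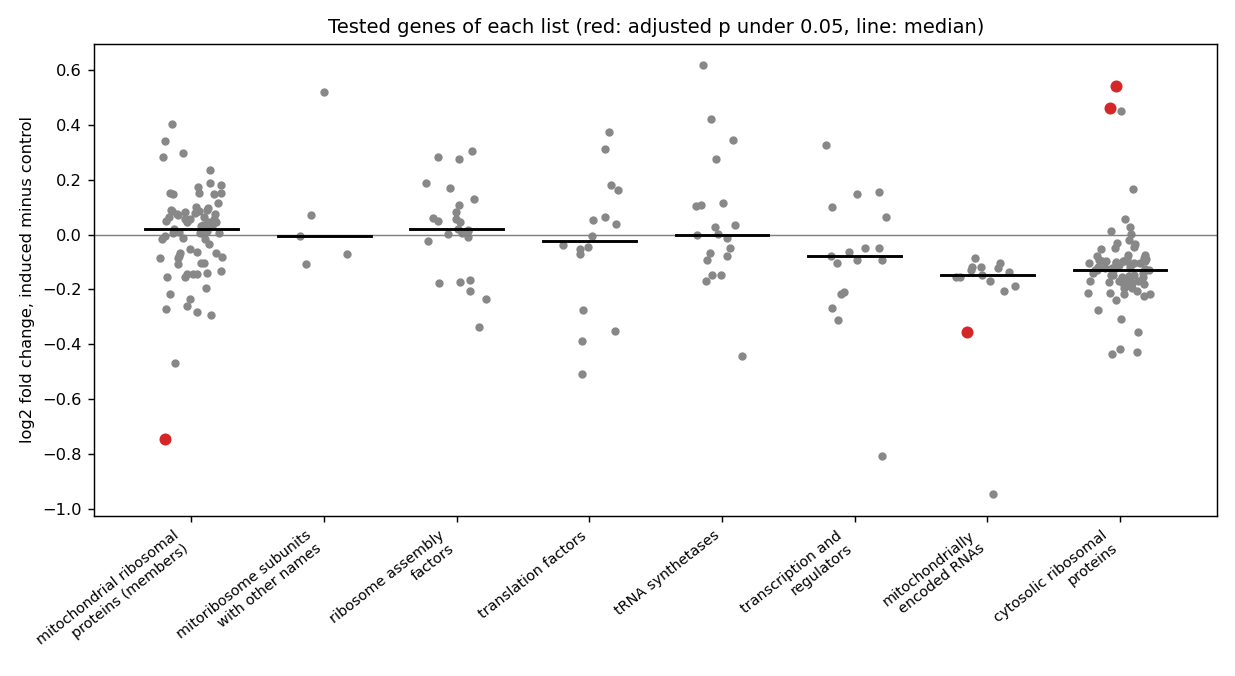
Log2 fold changes of the tested genes of each list, with red points for genes called at an adjusted p under 0.05 and lines for medians. The mitochondrial ribosomal proteins centre on 0.02, the mitochondrially encoded RNAs all lie below 0 (median -0.15), and most cytosolic ribosomal proteins lie below 0 (median -0.13).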

How the data were processed

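RNA of 4 HT-22 samples was sequenced (n = 2 per group). RNA came from Trizol extraction and libraries were made, per the labels' protocols, with a TruSeq kit that does not mark strand. The submitters' processing notes name HISAT, Cufflinks and mm9. How reads were counted and scaled is not given in the sources used here. As deposited, the log2 values are log2(normalized reads + 1): whole reads were recovered for 100% of values within a tolerance of 0.01. Genes that averaged 1 CPM or more (25.8 to 35.3 reads) were tested two-sided with limma 3.58.1 (R 4.3.3, variance trend, no covariate) on the deposited log2 values, with Benjamini-Hochberg adjustment over 13276 genes. The pseudocount of 1 understates changes of low genes. The fit was tested on simulated data whose planted changes were all larger than that of any member. That test does not cover changes of the members' size. A fold is the ratio of group means. Chromosomes, lengths and overlaps come from GENCODE M21.

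The members and lists were chosen with earlier results of these data known. Genes named were the called members, the 5 highest and 5 lowest fold changes, the 5 highest levels per kb, the 3 widest replicate gaps and members misnamed for their place, with called and abundant genes of other lists. Other filters, scalings, pseudocounts, tests, a replicate block and leaving out each library were tried.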

Additional observations from a re-analysis of the deposited data

How the results depend on the processing

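With 4 libraries, calls rest on little replication. The number of members called higher was 0 in every fit. The number called lower was 1 as reported and 0 with no filter on low values and without the variance trend, and 0 to 1 when single libraries were left out; without induced replicate 1 the 1 call was Mrps23, not Mrpl17. The members' median log2 fold change ran from -0.0642 to 0.0777 when single libraries were left out. Upper-quartile scaling gave a median of 0.00157, with 40 members above 0 and 38 below. With a replicate block the count lower stayed at 1, Mrpl17, the median at 0.02, and the calls over all genes went from 454 to 261. The numbers do not pair the samples (correlation of replicate differences -0.0951 across 13276 genes). Calls over all genes were 159 with no filter, 116 with no variance trend, 282 and 305 without control replicate 1 and 2, and 262 and 232 without induced replicate 1 and 2. Leaving out members with overlapping exons, or those on chromosome 16 (the latter chosen after seeing the data), kept both counts. The calls of mt-Rnr2, Rpl24 and Rps27l were lost with the replicate block (adjusted p of 0.129, 0.0961 and 0.0523), with no filter (0.0769, 0.1 and 0.074) and without the variance trend (0.151, 0.162 and 0.12), and that of Rpl24 also with upper-quartile scaling (0.0585).

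Over all 78 members, 46 lay above 0 and 32 below as reported. These counts were 23 and 55 without control replicate 1, and 55 and 23 without control replicate 2. They were 40 and 38 without induced replicate 1, and 46 and 32 without induced replicate 2. Among genes whose fold changes are given above, signs turned for 1 member with a large value, Mrps23, and for genes nearer to 0. Over leave-one-out fits the log2 fold change ran from -1.06 to 0.12 for Mrps23, from -0.0199 to 0.0618 for Mrpl18, from -0.13 to 0.0654 for Mrpl28, from -0.0081 to 0.10 for Mrpl33, from -0.33 to 0.32 for Mrps17, from -0.49 to 0.21 for Mrps24, from -0.16 to 0.14 for Mrps18b, from -0.13 to 0.0239 for Mrps18c, from -0.10 to 0.23 for Mrpl39, from -0.0333 to 0.0460 for Mrpl10, from -0.11 to 0.40 for Mrpl11, from -0.0064 to 0.16 for Mrpl12, from -0.18 to 0.34 for Mrpl3, from -0.0177 to 0.15 for Mrpl44, from -0.0596 to 0.42 for Mrpl58 and from -0.0938 to 0.16 for Mrps22. It ran from -0.22 to 0.0827 for Chchd1, from -0.0300 to 0.18 for Ptcd3, from -0.0862 to 0.10 for Mpv17l2, from -0.17 to 0.0676 for Lrpprc and from -0.0254 to 0.0033 for Iars2. Total-count scaling gave -0.0011 for Mpv17l2 and -0.00084 for Mrpl10, upper-quartile scaling -0.013 and -0.012, and voom on whole reads -0.0052 for Mpv17l2. The causes were not tested.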
